A study of Mus musculus with 20 samples.

Results

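The miR-378 family of microRNAs (miRNAs) was followed in the livers of PiZ and wild-type (WT) mice. Its members were taken by name alone, as every deposited row of mmu-miR-378a, mmu-miR-378b, mmu-miR-378c or mmu-miR-378d with any arm suffix. The rule found 5 members, mmu-miR-378a-3p, mmu-miR-378a-5p, mmu-miR-378b, mmu-miR-378c and mmu-miR-378d, among 1509 miRNA names in any file and 880 names in every file. All 5 were listed in every file and all 5 passed the filter on low counts, and no joined name held a member. The study sequenced small RNA from liver to profile the miRNAs of PiZ mice. The 5 PiZ mice are transgenic for human alpha-1 antitrypsin in its Z variant. Alpha-1 antitrypsin is a protease inhibitor that hepatocytes secrete into blood, and the Z variant misfolds and accumulates in their endoplasmic reticulum. The other group was 5 WT mice. Mice of both groups were of strain C57BL/6 and 6 weeks old. Their sex and the transgene's promoter were not given in the sources used here. Small RNA sequencing did not measure the mRNA of the transgene.

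A miRNA is cut from a hairpin precursor as a duplex of a 5p and a 3p arm, of which 1 is usually the more abundant, and it represses mRNAs that pair with its seed, the bases near its 5′ end. miR-378a lies in an intron of Ppargc1b, the gene of the mitochondrial co-activator PGC-1 beta. It is known from mouse work as a metabolic miRNA, abundant in muscle, fat and liver, that acts on fatty acid oxidation, mitochondrial function and hepatic insulin signalling. miR-378b, miR-378c and miR-378d are encoded at other loci, and their own roles in liver are less well described.

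The mature sequences show how alike the members are, which matters for every read assigned to one of them. The RefSeq table for GRCm38.p6 gave 3 of the 5 members, printed here 5′ to 3′ with the seed, bases 2 to 8, in capitals.
miR-378d: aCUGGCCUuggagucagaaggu
miR-378c: aCUGGACUuggagucagaagc
miR-378b: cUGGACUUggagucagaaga
miR-378d has 22 bases and lies at chr10:126710355-126710376 on the minus strand, where the annotation places no other gene. miR-378c has 21 bases and lies at chr14:46954905-46954925 on the minus strand, in an intron of Samd4, which runs on the plus strand. miR-378b has 20 bases and lies at chr11:88352839-88352858 on the plus strand, in an intron of Msi2, which runs on the minus strand. Positions in the following substitutions are counted from 1 at the 5′ end of the sequence named first. miR-378c and miR-378d differed at 2 of 21 aligned bases (A6C and C21G), the first of them inside the seed. miR-378b begins 1 base later than miR-378c and differed from it at 1 of 20 bases (A20C). miR-378b and miR-378d differed at 2 of 20 bases (A5C and A20G). The 3 sequences shared an unbroken run of 14 bases. Because of the seed substitution and the later start of miR-378b, the 3 seeds were all different. Each was found in 1 of the 1738 mature sequences of the table. By bases 2 to 8, these 3 members therefore do not form 1 seed family. The table held neither arm of miR-378a, so whether miR-378a-3p shares any of these seeds could not be checked.

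The deposited values are estimated counts of reads per mature miRNA, from 2 technical runs of 1 library per mouse. The runs were summed, so the mouse was the replicate. Summed libraries held 1307857 reads (WT mouse 1) to 10780801 reads (PiZ mouse 4). The files use feature lists of 2 lengths, a longer one of 1399 names (PiZ mice 1 and 2, WT mice 1 to 3) and a shorter one of 990 names (PiZ mice 3 to 5, WT mice 4 and 5). The longer-list libraries were also the shallower ones. miR-22-3p took 38.5% to 59.7% of the reads of a library, with the highest shares in WT mouse 1 (59.7%) and WT mouse 3 (52.2%). These 2 libraries also stood apart in the summed level of the hepatocyte markers, which was 87539 CPM in WT mouse 1 and 139465 CPM in WT mouse 3, against 216299 to 356479 CPM in the PiZ mice and 273546 to 304736 CPM in the other WT mice. Most of that sum was miR-192-5p and miR-148a-3p. miR-122-5p, the best-known hepatocyte miRNA, did not set them apart, at 13595 CPM in WT mouse 1 and 11952 CPM in WT mouse 3, and 11667 to 14243 CPM over the remaining WT mice. CPM are reads scaled to a library of 1000000 with TMM factors. The genotype differences of the members and of the ratios are given with and without these 2 mice.

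The family was an abundant group of the liver library, and nearly all of it was miR-378d and miR-378a-3p. Together the 5 members took 1.42%, 1.52%, 1.36%, 1.31% and 1.77% of all miRNA reads in PiZ mice 1 to 5, against 3.37%, 1.59%, 2.27%, 1.62% and 1.73% in WT mice 1 to 5. The share was below every WT mouse in PiZ mice 1 to 4, PiZ mouse 5 lay among the WT mice, and WT mouse 1 held the highest share. Apart from WT mice 1 and 3, the WT mice held 1.59% to 1.73%. The mean was 1.48% ± 0.181 over the PiZ livers and 2.12% ± 0.754 over the WT livers (SD, n = 5 each). As a share of the reads other than miR-22-3p it was 2.57% ± 0.279 over the PiZ livers and 4.28% ± 2.45 over the WT livers (SD, n = 5 each), with 8.37% in WT mouse 1. No test was made of these sums over members. In liver tissue, fewer cells that hold a miRNA and less of it per cell cannot be told apart.

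Within the family, the order of the members was the same at the top in every mouse. miR-378d made up 69.3% to 71.9% of the family's reads over the 10 mice and miR-378a-3p 26.1% to 29.2%. The 3 minor members were far lower, with miR-378a-5p at 0.577% to 1.20%, miR-378c at 0.482% to 0.664% and miR-378b at 0.217% to 0.306%. A small RNA read covers the whole miRNA, so these levels were compared per read with no scale for length. Whether different sequences give the same number of reads per molecule was not tested, so these are shares of reads. Among all miRNAs of a library, miR-378d ranked between 5 (WT mouse 1) and 14 (WT mouse 4) and miR-378a-3p between 13 and 25. The order of miR-378a-5p and miR-378c was not fixed: their ranks ran from 65 to 127 and from 92 to 137. miR-378b was the lowest member in every mouse, at rank 118 to 173.

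**Figure D1:**
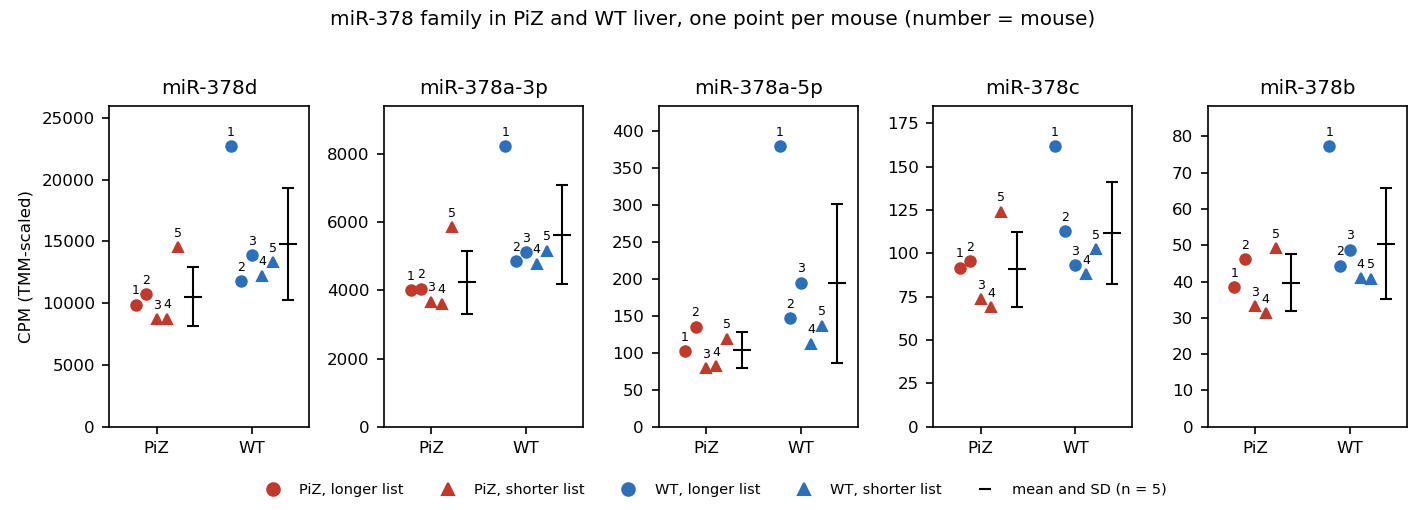
CPM of the 5 members (vertical axes, each with its own scale from 0) in each PiZ and WT mouse, with circles for the longer and triangles for the shorter feature list, and the mean and SD of 5 mice beside each group. PiZ mice 1 to 4 lie below every WT mouse for miR-378d and miR-378a-3p, PiZ mouse 5 lies among the WT mice, and WT mouse 1 is the highest of all for every member.

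The first comparison asked whether the members differ between PiZ and WT liver. No member passed the test. All 5 had a negative log2 fold change, from -0.24 to -0.71, and PiZ mouse 5 lay among the WT mice for each of them. At a threshold of 0.05 on the adjusted p (edgeR quasi-likelihood test, Benjamini-Hochberg), 0 of 5 members were called, over a background of 9.23% of the miRNAs tested (31 of 336, of which 28 were higher and 3 lower in PiZ), and 1 of 5 had an unadjusted p under 0.05, over 24.4% of the miRNAs tested (82 of 336). DESeq2 and limma-voom called 0 members each, over 14.9% (50 of 336) and 2.08% (7 of 336) of the miRNAs. The median log2 fold change was -0.39 over the members and 0.07 over all 336 miRNAs, of which 158 (47.0%) were negative. Members of near-identical sequence share mice, libraries and possibly reads, so 5 negative values are not 5 independent observations.

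miR-378d, the most abundant member, had 9878, 10727, 8716, 8728 and 14506 CPM in PiZ mice 1 to 5, against 22683, 11767, 13891, 12229 and 13337 CPM in WT mice 1 to 5. PiZ mice 1 to 4 lay below all WT mice, while PiZ mouse 5 lay above every WT mouse but the first, so the groups overlapped through 1 mouse. Its mean was 10511 ± 2388 CPM over the PiZ livers and 14781 ± 4498 CPM over the WT livers (SD, n = 5 each). The log2 fold change was -0.45 (SE 0.24, 95% interval -0.99 to 0.08), with an adjusted p of 0.266 in edgeR. The interval holds 0 as well as a value of -0.99.

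miR-378a-3p, the major arm of the hairpin in Ppargc1b, followed the same order. It had 4011, 4050, 3675, 3611 and 5854 CPM in PiZ mice 1 to 5, against 8227, 4854, 5130, 4787 and 5172 CPM in WT mice 1 to 5. Again PiZ mice 1 to 4 were below all WT mice and PiZ mouse 5 was above all of them but WT mouse 1. The mean was 4241 ± 923 CPM over the PiZ livers and 5634 ± 1459 CPM over the WT livers (SD, n = 5 each), a log2 fold change of -0.39 (SE 0.23, 95% interval -0.89 to 0.12; edgeR adjusted p = 0.327). Having at least 4 of 5 PiZ mice below every WT mouse was not particular to these members: it held for 8.93% of the miRNAs tested (30 of 336).

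miR-378a-5p, the minor arm of the same hairpin, had the largest of the 5 fold changes and the smallest p. It had 102, 136, 79.5, 81.6 and 119 CPM in PiZ mice 1 to 5, against 380, 147, 195, 112 and 137 CPM in WT mice 1 to 5. PiZ mice 1, 3 and 4 lay below all WT mice, PiZ mice 2 and 5 lay between WT mice, and WT mouse 1 stood far above the next highest, WT mouse 3. The mean was 104 ± 24.1 CPM over the PiZ livers and 194 ± 108 CPM over the WT livers (SD, n = 5 each). The log2 fold change was -0.71 (SE 0.30, 95% interval -1.37 to -0.06), with an unadjusted p of 0.0356 and an adjusted p of 0.166 in edgeR. Without WT mouse 1 it was -0.47 (adjusted p = 0.201).

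The other minor members overlapped more. miR-378c had 91.7, 95.3, 73.7, 68.9 and 124 CPM in PiZ mice 1 to 5, against 162, 113, 93.0, 88.0 and 102 CPM in WT mice 1 to 5. Only PiZ mice 3 and 4 lay below all WT mice, and PiZ mouse 5 was above 4 of the 5. Its log2 fold change was -0.24 (SE 0.24, 95% interval -0.78 to 0.29; edgeR adjusted p = 0.594). miR-378b had 38.5, 46.1, 33.1, 31.2 and 49.1 CPM in PiZ mice 1 to 5, against 77.2, 44.3, 48.7, 40.9 and 40.8 CPM in WT mice 1 to 5. PiZ mice 1, 3 and 4 were below all WT mice, and 3 of the WT mice lay below PiZ mouse 2. Its log2 fold change was -0.26 (SE 0.24, 95% interval -0.80 to 0.27; edgeR adjusted p = 0.564). miR-378b rested on 85 to 411 reads per mouse and miR-378c on 166.5 to 1037, while miR-378d had 22557 to 122907.

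**Figure D2:**
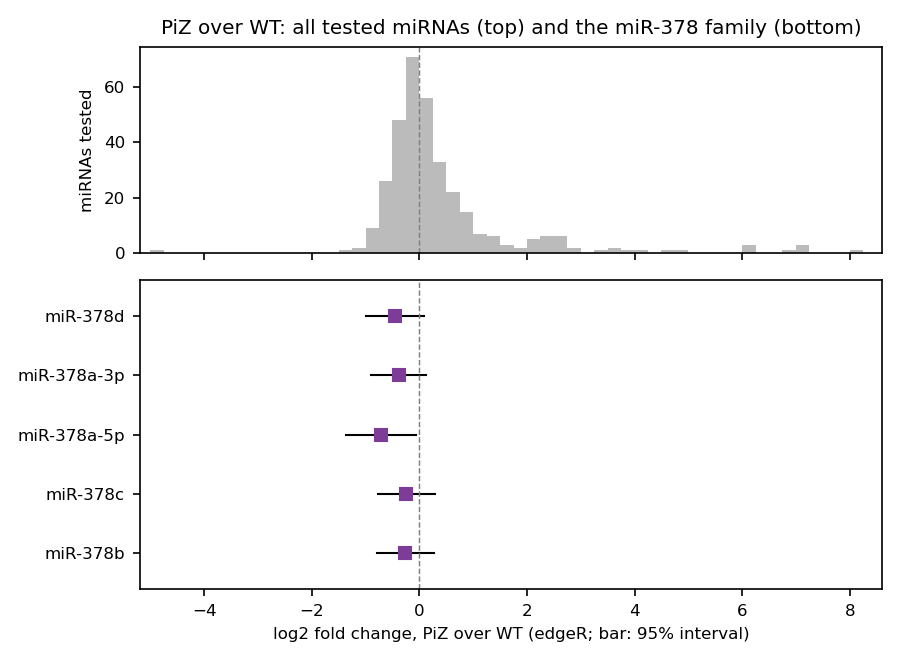
The upper panel counts all 336 tested miRNAs by their log2 fold change, PiZ over WT, and the lower panel gives the log2 fold change of each member with its 95% interval from edgeR. The members lie between -0.24 and -0.71, and only the interval of miR-378a-5p (-1.37 to -0.06) leaves out 0.

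Apart from miR-378a-5p, the members were among the more even miRNAs within a genotype. The SD of log2 CPM within genotypes was 0.31 for miR-378a-3p, 0.34 for each of miR-378b, miR-378c and miR-378d, and 0.54 for miR-378a-5p, against a median of 0.52 over all tested miRNAs. Ranked from the largest spread of 336, miR-378a-3p stood at 287, and miR-378d, miR-378c and miR-378b at 266, 270 and 274. The spread of miR-378a-5p, at rank 156, was close to the middle. The ranks were taken over miRNAs of all abundances. Other abundant miRNAs stood on both sides of the family, with miR-122-5p at rank 324 and miR-148a-3p at rank 165. The difference between the 2 runs of a library was smaller than these spreads for the abundant members. Error from steps before sequencing was not measured. The level in the second run over that in the first was 0.976 to 1.01 for miR-378d and 0.951 to 1.02 for miR-378a-3p over the 10 mice. It was 0.839 to 1.08 for miR-378a-5p, 0.864 to 1.07 for miR-378c and 0.782 to 1.23 for miR-378b, the member with the fewest reads.

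The fold changes moved with WT mouse 1 and PiZ mouse 5, in the same direction for all members. With WT mouse 1 left out, the log2 fold change was -0.29 for miR-378d, -0.24 for miR-378a-3p, and -0.12 for both miR-378b and miR-378c. With PiZ mouse 5 left out it was -0.60 for miR-378d (adjusted p = 0.0765), -0.53 for miR-378a-3p (adjusted p = 0.0900) and -0.84 for miR-378a-5p (adjusted p = 0.0752; all edgeR). Leaving out both libraries that stood apart, WT mice 1 and 3, moved the values towards 0, and leaving out PiZ mouse 5 moved them away from it. WT mouse 3 left out alone moved all 5 members away from 0. They were then at -0.48 for miR-378d, -0.42 for miR-378a-3p, -0.75 for miR-378a-5p, -0.29 for miR-378b and -0.30 for miR-378c. Without WT mice 1 and 3, miR-378d was at -0.24 (adjusted p = 0.455), miR-378a-3p at -0.21 (adjusted p = 0.483) and miR-378a-5p at -0.38 (adjusted p = 0.269). In the same fit miR-378b was at -0.097 (adjusted p = 0.808) and miR-378c at -0.16 (adjusted p = 0.706; all edgeR). With PiZ mouse 5 left out as well, 2 of 5 members passed in edgeR, miR-378d at -0.41 (SE 0.11, adjusted p = 0.0313) and miR-378a-3p at -0.38 (SE 0.093, adjusted p = 0.0222), while 82 of the 336 miRNAs passed. These 3 mice were chosen with their values known, and what sets them apart was not tested. In each of the 23 alternatives run, the fold change was negative for all 5 members, and those 2 values were the ones that passed.

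**Figure D3:**
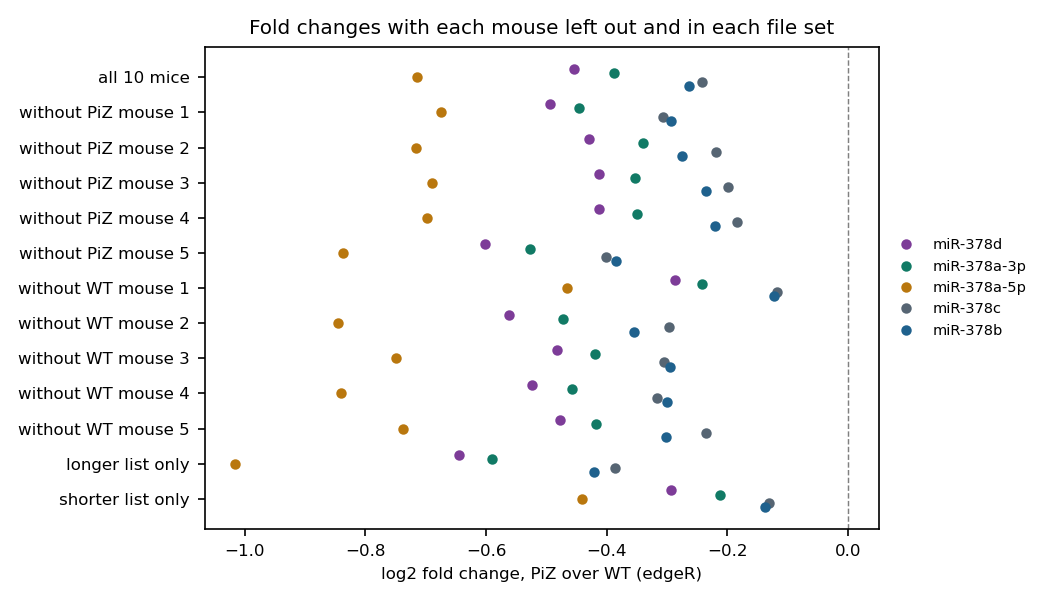
Log2 fold change, PiZ over WT, of each member (horizontal axis, edgeR) with all 10 mice, with each mouse left out and in each file set alone. All points lie below 0, those without WT mouse 1 and in the shorter list alone nearest to it (-0.29 for miR-378d in both), and those without PiZ mouse 5 among the farthest (-0.60 for miR-378d).

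The second comparison asked whether the genotype effect depends on the set of files, since the feature lists and the depth differ between the sets. Among the longer-list mice (2 PiZ and 3 WT), the log2 fold change was -0.65 for miR-378d (adjusted p = 0.431), -0.59 for miR-378a-3p (adjusted p = 0.447) and -1.02 for miR-378a-5p (adjusted p = 0.299). Among the shorter-list mice (3 PiZ and 2 WT) it was -0.29 for miR-378d (adjusted p = 0.488), -0.21 for miR-378a-3p (adjusted p = 0.581) and -0.44 for miR-378a-5p (adjusted p = 0.337; all edgeR). WT mouse 1, the highest, was in the first set and PiZ mouse 5, the highest PiZ mouse for all members but miR-378a-5p, in the second. The difference of the 2 effects was -0.32 for miR-378d (SE 0.48, adjusted p = 0.905), -0.35 for miR-378a-3p (SE 0.44, adjusted p = 0.890) and -0.55 for miR-378a-5p (SE 0.57, adjusted p = 0.872). The differences for miR-378b (-0.25, SE 0.48) and miR-378c (-0.23, SE 0.49) were smaller than their errors as well. Without WT mouse 1 the difference of the effects was -0.064 for miR-378a-3p and -0.050 for miR-378a-5p. 0 members passed in edgeR or in DESeq2 and 0 had an unadjusted p under 0.05, over a background of 0% (0 of 372 miRNAs, of which 16 had an unadjusted p under 0.05). SEs of this size leave room for unequal effects.

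Between the file sets themselves, with genotype in the model, the largest difference was that of the minor arm. miR-378a-5p averaged 192 ± 110 CPM in the longer-list and 106 ± 24.9 CPM in the shorter-list mice (SD, n = 5 each), a log2 difference of 0.65 (SE 0.30, unadjusted p = 0.0532, edgeR adjusted p = 0.541). For miR-378d the difference was 0.14 and for miR-378a-3p 0.08 (edgeR adjusted p = 0.958 and 0.973). It was 0.32 for miR-378b and 0.22 for miR-378c (edgeR adjusted p = 0.756 and 0.854). In edgeR 0 of 5 members passed, with 0 at an unadjusted p under 0.05, over a background of 0.595% (2 of 336, with 31 at an unadjusted p under 0.05).

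The levels of the members varied together over the 10 mice. Pearson's r of log2 CPM with miR-378a-3p was 0.991 for miR-378d, 0.925 for miR-378c, 0.921 for miR-378b and 0.878 for miR-378a-5p, and Spearman's rho was 0.964, 0.891, 0.842 and 0.806 in the same order. These mice share libraries, scaling and the genotype difference, so the values are descriptions. Without WT mouse 1 and PiZ mouse 4, the mice farthest from the median of miR-378a-3p, r was 0.970 for miR-378d, 0.786 for miR-378c, 0.722 for miR-378b and 0.585 for miR-378a-5p over 8 mice. The relation with miR-378d thus changed little, and r with the other arm of the same hairpin fell. Those 2 mice were the ends of the range of miR-378a-3p. The part of the narrower range in the fall of r was not tested.

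**Figure D4:**
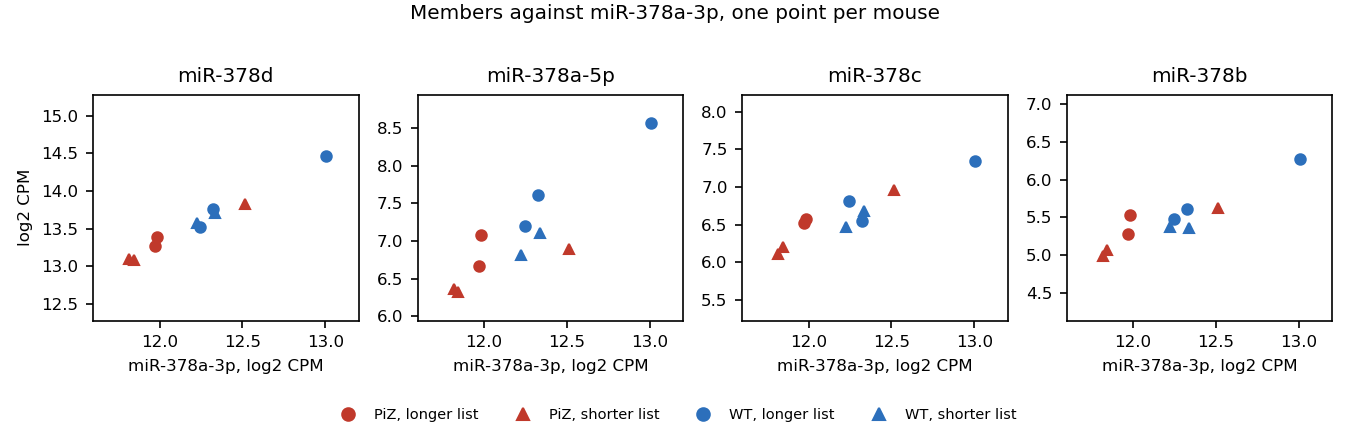
Log2 CPM of miR-378d, miR-378a-5p, miR-378c and miR-378b (vertical axes, each 3 log2 units high) against log2 CPM of miR-378a-3p, with 1 point for each of the 5 PiZ and 5 WT mice. miR-378d lies nearly on a line (r = 0.991), while miR-378a-5p scatters more (r = 0.878), and WT mouse 1 is the point at the upper right of each panel.

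Ratios of reads within a library do not depend on its scaling, and the third comparison used them. For each miR-378a-3p read there were 2.46, 2.65, 2.37, 2.42 and 2.48 miR-378d reads in PiZ mice 1 to 5, against 2.76, 2.42, 2.71, 2.55 and 2.58 in WT mice 1 to 5. The ratio was nearly the same in all mice, and the groups overlapped. On the log2 scale it averaged 1.31 ± 0.060 over the PiZ livers and 1.38 ± 0.074 over the WT livers (SD, n = 5 each). The PiZ minus WT difference of -0.07 gave p = 0.127 in an exact two-sided permutation test, where 0.00794 is the smallest p that the 252 arrangements allow. The counting error of a single mouse's log2 ratio was 0.0077 to 0.0178, below the spread between mice. Without WT mice 1 and 3 the difference was -0.026 (exact p = 0.536), and without WT mouse 1 alone it was -0.052 (exact p = 0.254). With labels exchanged only within file sets it was -0.062 (exact p = 0.190), and without PiZ mouse 2 or WT mouse 2, in turn, -0.097 or -0.098 (exact p = 0.0476 each).

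The balance of the 2 arms of the miR-378a hairpin differed more between mice. 1 miR-378a-5p read was found for every 21.7 to 49.1 miR-378a-3p reads. The log2 ratio of 5p to 3p was -5.30, -4.90, -5.53, -5.47 and -5.62 in PiZ mice 1 to 5, against -4.44, -5.05, -4.72, -5.41 and -5.24 in WT mice 1 to 5. WT mice 1 and 3 had the highest 5p share and PiZ mouse 5 the lowest, with overlap between the groups. The mean was -5.36 ± 0.28 over the PiZ livers and -4.97 ± 0.39 over the WT livers (SD, n = 5 each), a difference of -0.39 (exact two-sided permutation p = 0.111). With labels exchanged only within file sets, the difference was -0.29 (exact p = 0.0800, where 0.01 is the smallest the 100 arrangements allow). Adjusted over the 2 ratios tested, both the arm ratio and the miR-378d ratio had p = 0.127. The ratio also moved with the file set, at -4.88 ± 0.33 in the longer-list and -5.45 ± 0.14 in the shorter-list mice (SD, n = 5 each), with no test made of that contrast. Without WT mice 1 and 3, the difference between genotypes was -0.13 (exact p = 0.5), without WT mouse 1 alone -0.26 (exact p = 0.222), and without PiZ mouse 2 -0.51 (exact p = 0.0317).

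The ratios of the other loci to miR-378a-3p were given no test. There was 1 miR-378c read for every 42.4 to 55.0 miR-378a-3p reads and 1 miR-378b read for every 87.9 to 127. The log2 ratio of miR-378c averaged -5.55 ± 0.13 over the PiZ livers and -5.66 ± 0.14 over the WT livers, and that of miR-378b -6.74 ± 0.18 over the PiZ livers and -6.81 ± 0.11 over the WT livers (SD, n = 5 each). Both ranges overlapped between genotypes, and in neither did the mice part by genotype.

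**Figure D5:**
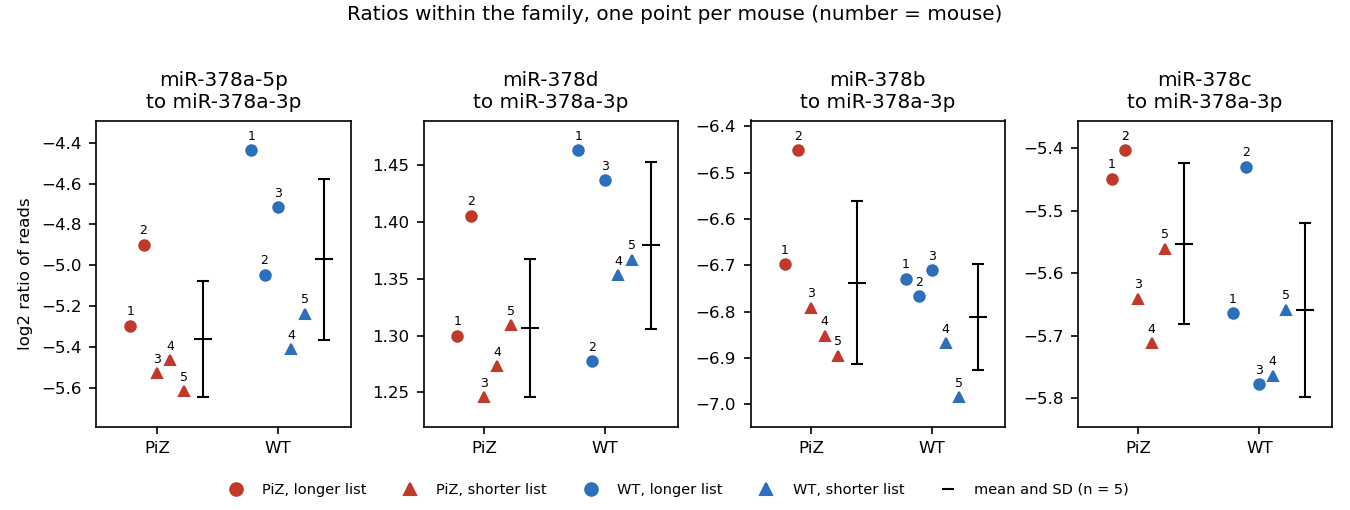
Log2 ratio of the reads of each member to those of miR-378a-3p (vertical axes, each with its own range) in each PiZ and WT mouse, with the mean and SD of 5 mice beside each group. The miR-378d ratio spans little (2.37 to 2.76 reads per read), the miR-378a-5p ratio is highest in WT mouse 1 (-4.44), and the groups overlap in every panel.

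The split of reads between members has a limit that the values themselves show. In 12 of the 20 runs the counts of miR-378a-3p and miR-378c were fractional, in the same 12 runs for both members, whereas miR-378a-5p, miR-378b and miR-378d were whole in all 20. How reads that match several miRNAs were shared was not given in the sources used here. miR-378d, encoded away from Ppargc1b and 2 bases from miR-378c, was thus the leading member by reads, but the share of those reads that came from its own locus was not tested.

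The miRNAs outside the family that followed miR-378a-3p most closely over the 10 mice were let-7k (r = 0.952), miR-30c-2-3p (r = 0.937), let-7b-3p (r = 0.934), miR-107-3p (r = 0.934) and miR-31-5p (r = 0.894). None came as close as miR-378d (0.991). All but miR-31-5p came closer than miR-378c (0.925) and miR-378b (0.921), and all came closer than miR-378a-5p (0.878). Without the 2 farthest mice the r of these outside miRNAs was 0.810 to 0.947. In the same 8 mice it was 0.970 for miR-378d, 0.786 for miR-378c, 0.722 for miR-378b and 0.585 for miR-378a-5p. All 5 of the outside miRNAs had a negative fold change that did not pass. An example was miR-107-3p, which lies in an intron of a pantothenate kinase gene (log2 fold change -0.39, adjusted p = 0.341, edgeR). The lowest r were those of miR-411-3p (-0.884), miR-379-5p (-0.882) and miR-199b-5p (-0.868). Of these, miR-379-5p was among the miRNAs higher in PiZ liver (log2 fold change 2.38, adjusted p = 0.0385, edgeR). The miRNAs at both ends were picked by r with miR-378a-3p over the same mice. The signs of their fold changes are therefore not independent of that of miR-378a-3p.

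Other miRNAs known to act on lipid, cholesterol, glucose or mitochondrial metabolism did not move as 1 group. Of 30 listed, 27 were in every file, 26 were tested, and 0 passed in edgeR. An unadjusted p under 0.05 was found for 8 of 26, against 24.4% of all miRNAs. DESeq2 called 5 of 26, against 14.9% of all miRNAs: miR-122-5p and miR-26a-5p lower, and miR-27a-3p, miR-144-3p and miR-223-3p higher in PiZ liver. 13 of the 26 had a positive log2 fold change, with a median of 0.01 against 0.07 over all miRNAs. The most abundant was miR-148a-3p, which represses the LDL receptor, at 0.92 (adjusted p = 0.0947). miR-26a-5p, a regulator of hepatic insulin sensitivity, was at -0.44 (adjusted p = 0.116), miR-27b-3p, a regulator of lipid metabolism, at -0.13 (adjusted p = 0.743) and miR-143-3p, which impairs insulin signalling, at 0.27 (adjusted p = 0.605; all edgeR).

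Markers of tissues and cells that could carry miR-378 were set beside the family. Of the striated muscle list, a tissue rich in miR-378, none of the 5 markers listed in every file passed the filter, and miR-206-3p had 0 reads in all WT mice. Their summed level was 67.6 CPM in PiZ mouse 4, 0.788 to 3.68 CPM in the other PiZ mice and 0.560 to 3.13 CPM in the WT mice. A miRNA of the miR-133 family outside the list, miR-133c, was tested. It had 455 CPM in PiZ mouse 4 and 5.91 to 11.7 CPM in the other PiZ mice, against 1.43 to 5.60 CPM in the WT mice (log2 fold change 3.73, SE 1.53, adjusted p = 0.159, edgeR). The PiZ and WT ranges of miR-133c nearly met, at 5.91 CPM in PiZ mouse 2 and 5.60 CPM in WT mouse 3. In these libraries 1 read was worth 0.394 and 0.560 CPM. Other miRNAs such as miR-148a-3p also had all 5 PiZ mice above every WT mouse. The share of all miRNAs for which this held was not counted, so nothing is read from this order. PiZ mouse 4, with the most of these muscle miRNAs, had the lowest level of miR-378a-3p, miR-378b and miR-378c of all mice. The adipose list, of which miR-203-3p was the most abundant (log2 fold change -0.29, adjusted p = 0.472), had 0 of 4 tested members past the threshold in edgeR and in DESeq2, 1 with an unadjusted p under 0.05, and 0 of 4 positive. Its sum was 281 to 410 CPM in PiZ and 285 to 555 CPM in WT mice, highest in PiZ mouse 5 among the PiZ mice but lowest in WT mouse 1 among the WT mice, with 0 reads of miR-196a-5p in all WT mice. Its part in the family's levels was not tested. In WT mouse 1, where the family was highest, the hepatocyte sum was the lowest of all mice and the endothelial sum was 7895 CPM, against 23353 to 28794 CPM in the PiZ mice and 12651 to 41271 CPM in the other WT mice. WT mouse 1 was also the lowest of all mice for the immune (912 CPM), the smooth muscle and stellate (5770 CPM) and the metabolic sum (144051 CPM). Its erythroid (1079 CPM) and pancreas sums (17.2 CPM) were the highest of the WT mice. The part of these lists in the family's levels was not tested.

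The remaining lists had few calls. 0 of 6 hepatocyte miRNAs passed in edgeR, and they differed among themselves. miR-192-5p was at 0.10 (adjusted p = 0.922), while miR-194-5p was at -0.46 (adjusted p = 0.233). miR-122-5p was at -0.48 (adjusted p = 0.119, unadjusted p = 0.0207), a difference of about the size of that of miR-378d (-0.45). For miR-122-5p 5 of 5 PiZ mice lay below every WT mouse. The looser order of at least 4 of 5 held for 8.93% of the miRNAs tested (30 of 336). The share with 5 of 5 was not counted. The part of miR-122-5p in the family's levels was not tested. 0 of 4 erythroid miRNAs passed. miR-486-5p, joined with miR-3107-5p, was at 0.25 (adjusted p = 0.816), and the other 3 were at 1.27 to 1.53 (adjusted p = 0.108 to 0.127). 0 of 6 immune miRNAs passed (miR-142-5p 1.03, adjusted p = 0.216; all edgeR). Nor did any pass among 2 endothelial (miR-126a-5p 0.06, adjusted p = 0.948) and 5 smooth muscle and stellate miRNAs, of which miR-143-3p was the most abundant. An unadjusted p under 0.05 was found for 2 of 6 hepatocyte, 3 of 4 erythroid, 2 of 6 immune, 0 of 2 endothelial and 1 of 5 smooth muscle and stellate miRNAs, against 24.4% of all miRNAs. DESeq2 called 1 hepatocyte (miR-122-5p), 1 erythroid (miR-144-3p) and 1 immune miRNA (miR-223-3p) and 0 of the endothelial and the smooth muscle and stellate lists, against 14.9% of all miRNAs. Of 4 pancreas miRNAs, 2 were higher in PiZ liver in edgeR, miR-216b-5p and miR-217-5p, against 28 of all 336 miRNAs. DESeq2 called 3, these and miR-216a-5p, against 14.9% of all miRNAs. Their levels were low and uneven. miR-216b-5p had 17.9 ± 15.9 CPM over the PiZ livers and miR-217-5p 4.70 ± 4.47 CPM (SD, n = 5 each). Over the WT livers each had a mean of 0.030 CPM. miR-375-3p, the most abundant of the list in the WT mice, was at -0.08 (adjusted p = 0.932, edgeR).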

How the data were processed

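Liver small RNA of 5 PiZ and 5 WT mice was sequenced from TruSeq small RNA libraries, each in 2 runs, per the labels' protocols. The deposited values are estimated counts per mature miRNA, some of them fractional. Per the submitters' processing notes, CASAVA was used. The genome build, the aligner, the release of miRBase and the way multi-matching reads were shared were not given in the sources used here. Runs were summed per mouse and rounded to whole numbers. The 880 miRNAs common to all files, with at least 99.999% of each library's reads, were filtered by filterByExpr, and 336 were kept. TMM scaling and the quasi-likelihood F-test of edgeR 4.0.16 (R 4.3.3) followed, with terms for file set and genotype and Benjamini-Hochberg adjustment over all tested at a threshold of 0.05. An SE is the size of the log2 fold change over the root of its F value. 1 read was worth 0.0887 to 0.715 CPM. Log2 ratios used a pseudocount of 0.5 and exact two-sided permutation tests (scipy 1.17.1).

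Alternatives were DESeq2 1.42.0, limma 3.58.1 (voom), other scalings, no filter, no file set term, single runs and file sets, and left-out mice. The members, the lists and the mice left out were chosen with earlier results of these data known. The miRNAs named are all members, miR-22-3p, the 5 most and 3 least alike to miR-378a-3p, the 4 most abundant of the metabolic list and the most abundant of each marker list; miR-206-3p, miR-196a-5p, miR-133c, miR-122-5p, miR-194-5p and the list members that DESeq2 called were added after their values were seen. The steps were tested on simulated data. For the ratios, the simulated shift was larger, relative to its spread between mice, than the differences found here. The power to detect ratio differences of the size found here was not tested. P-values set a group difference against the spread between mice. Counting errors take every read as an independent molecule, so they cover counting alone.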

Additional observations from a re-analysis of the deposited data

Results flagged for a closer look

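In all, 20 groups of 5 mice were looked at for 1 mouse far from the rest, 10 of them levels on the log2 CPM scale and the other 10 log2 ratios or the family's share. In 4 of the 10 groups of levels, and in 0 of the others, the gap to the nearest mouse exceeded 0.71 of the group's range. Chance gives about 1 in 20 such groups, and the members share mice and move together, so the 4 are not independent. PiZ mouse 5 was the highest PiZ mouse for miR-378a-3p, with a gap of 0.763 of the PiZ range. WT mouse 1 was the highest WT mouse for miR-378a-3p (0.857 of the WT range), for miR-378d (0.747) and for miR-378b (0.722). WT mouse 1 was also the shallowest library, with the highest share of miR-22-3p (59.7%), and the part of either in its values was not tested.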

How the results depend on the processing

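No paired analysis was possible because the numbers after "rep" name technical runs of a library, and the PiZ and WT mice are different animals. The count of changed miRNAs, 31, was 50 in DESeq2, 7 in limma-voom, 18 scaled to reads without miR-22-3p, 83 with no filter, 19 in run 1 alone, 0 in the shorter-list mice alone, 1 without WT mice 1 and 3, 82 without those and PiZ mouse 5, and 8 to 53 with single mice left out. 0 members passed in 22 of 23 alternatives and 2 without PiZ mouse 5 and WT mice 1 and 3. The median of all miRNAs moved by over 0.1 in run 1 alone (-0.13) and without PiZ mouse 1 (-0.12). With single mice left out, the log2 fold change was -0.60 to -0.29 for miR-378d, -0.53 to -0.24 for miR-378a-3p, -0.85 to -0.47 for miR-378a-5p, -0.40 to -0.12 for miR-378c and -0.38 to -0.12 for miR-378b. The difference of the genotype effect between file sets turned positive for miR-378b (0.032), miR-378c (0.021) and miR-378d (0.0070) without WT mouse 1 and for miR-378c (0.073) without PiZ mouse 5, and ranged from -0.40 to 0.032 for miR-378b, -0.40 to 0.073 for miR-378c, -0.50 to 0.0070 for miR-378d, -0.48 to -0.064 for miR-378a-3p and -0.80 to -0.050 for miR-378a-5p. The arm ratio differed by -0.51 to -0.26 and the miR-378d ratio by -0.098 to -0.052 with single mice left out. The family's share differed by -0.64 percentage points, by -0.77 to -0.32 with single mice left out, and by -1.70 among reads other than miR-22-3p. The cause of these moves was not tested. Depth limited miR-378b most, at 85 reads in WT mouse 2.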
